A study of Mus musculus with 9 samples.

Results

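The AP-2 transcription factor family has 5 genes in the mouse, *Tfap2a*, *Tfap2b*, *Tfap2c*, *Tfap2d* and *Tfap2e*, and these were taken by name from the RNA-Seq tables, 5 genes among 19369 listed in at least 1 sample. Of the 5, 4 were listed in at least 1 sample and 3, *Tfap2a*, *Tfap2b* and *Tfap2c*, had enough reads to be tested between stages. The samples were wild-type C57BL/6 mouse tissue, with 3 of E10.5 periocular neural crest (pNC), 3 of E14.5 cornea and 3 of E16.5 cornea. No sample carried an engineered allele or received a treatment. Each sample was pooled from several eyes and holds every cell type of the dissected piece, which in the cornea means epithelium, stroma and endothelium. The E10.5 tissue had been treated with dispase and its ectoderm, lens vesicle and optic cup taken off.

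AP-2 proteins bind DNA as dimers, with themselves or with each other, at GC-rich sequences whose core is written GCCNNNGGC. They act early at the neural plate border, where neural crest and surface ectoderm part, and later in the skin, the face, the kidney and the eye. *Tfap2a* is required for closure of the cranial neural tube and for the face, lens and skin, *Tfap2b* acts in neural crest derivatives and in the distal kidney, and *Tfap2c* is best known from trophoblast, germ cells and epidermis. *Tfap2d* is a gene of the midbrain and retina and *Tfap2e* of olfactory neurons.

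In these tissues the family changed from 3 genes of like level in the pNC to a cornea dominated by *Tfap2b*. *Tfap2b* was 13.1-fold higher in the E14.5 cornea and 7.89-fold higher in the E16.5 cornea than in the pNC, and *Tfap2a* was 2.97-fold and 3.28-fold higher. With all samples used, *Tfap2c* stayed under the fold change required below in each of the 3 comparisons of stages. *Tfap2d* was listed in no sample and *Tfap2e* did not exceed 2 counts.

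The sequence before a gene's start is shown for the 2 members that rose. The RefSeq promoter sequences of GRCm38.p6 matched 4 of the 5 members, all but *Tfap2c*, and were searched on both strands over the 250 bases before each start for the AP-2 core GCCNNNGGC and for the form with 1 more base between its arms, GCCNNNNGGC. Both motifs read the same on either strand, they cannot begin at the same base, and they may overlap. The first start site of *Tfap2a* lies on the minus strand and its window is chr13:40734921-40735170. Capitals mark its single GCCNNNNGGC match, which begins 167 bases before the start. The window of *Tfap2b* on the plus strand is chr1:19211804-19212053 and holds neither form. Each of these windows lies inside the annotated span of its gene, which has other starts. Both are written 5′ to 3′.
Tfap2a: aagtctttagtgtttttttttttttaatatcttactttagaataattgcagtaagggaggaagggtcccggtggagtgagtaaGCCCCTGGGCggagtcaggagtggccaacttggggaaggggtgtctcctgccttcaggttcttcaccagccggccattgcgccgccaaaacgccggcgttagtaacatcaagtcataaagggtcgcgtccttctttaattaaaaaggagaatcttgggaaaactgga
Tfap2b: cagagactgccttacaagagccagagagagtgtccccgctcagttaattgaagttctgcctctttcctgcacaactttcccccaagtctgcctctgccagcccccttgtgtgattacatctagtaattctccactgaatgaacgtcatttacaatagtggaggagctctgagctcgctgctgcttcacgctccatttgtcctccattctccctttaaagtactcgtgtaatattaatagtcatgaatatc
The window of the second *Tfap2a* start site, the 3 windows of *Tfap2d* and the single window of *Tfap2e* held neither form. Among 32851 windows of the same length, 13.7% held GCCNNNGGC and 12.3% held GCCNNNNGGC. The nuclear receptor half-site AGGTCA, of interest because retinoic acid acts through nuclear receptors in the periocular mesenchyme, was in 14.02% of all windows and in none of the members' windows. GC content was 47.6% and 60.4% in the windows of the first and second *Tfap2a* start sites, 46.4% in that of *Tfap2b*, 38.8 to 55.2% in those of *Tfap2d* and 59.2% in that of *Tfap2e*, against a median of 52.4% over all windows. A match of letters is a description and not a binding site.

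The depth was even, with 8745161 to 9069023 expected counts per sample, and 16967 to 17275 genes were listed in each. Expected counts are RSEM's estimates of the reads of a gene, and FPKM scales them to transcript length and to the total of the sample, so levels of different genes are compared below in FPKM only. Pairs of samples of 1 stage differed by more than counting error (chi-square of their counts over its degrees of freedom, 2.93 to 26.3). E14.5 replicate 1 stood apart from its stage, at 26.3 and 26.2 against the other two samples, which differed from each other by 9.05. Members' results that rest on it are given with and without it. The labels do not say whether the samples came from separate litters, so p-values measure the spread between these pools.

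*Tfap2b* is a factor of crest derivatives, those of the anterior eye included. Its FPKM was 10.80, 10.46 and 12.89 in E10.5 replicates 1, 2 and 3 (11.4 ± 1.32, SD, n = 3). It was 93.71, 170.98 and 186.14 in the E14.5 corneas (150.3 ± 49.6, n = 3). In the E16.5 corneas it was 73.14, 84.21 and 86.20 (81.2 ± 7.04, n = 3). Every cornea sample was thus far above every pNC sample, and the E14.5 stage was spread widely because replicate 1 was low. Among the genes listed in a sample, *Tfap2b* stood above 58.9 to 63.9% of them in the pNC, 96.1 to 98.4% in the E14.5 cornea and 95.04 to 96.15% in the E16.5 cornea. These levels rest on 578 to 694 counts in the pNC and 3890 to 10115 in the cornea, so counting error is small beside the spread of samples.

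Between stages, a gene was called where edgeR's quasi-likelihood test gave a Benjamini-Hochberg adjusted p under 0.05 over all 14771 genes tested and the log2 fold change was at least 1 in size. *Tfap2b* rose from E10.5 to E14.5 by 3.71 on the log2 scale (SE 0.24, adjusted p = 9.3e-07), or by 3.96 without E14.5 replicate 1. From E10.5 to E16.5 it rose by 2.98 (SE 0.24, adjusted p = 1.3e-06). From E14.5 to E16.5 the log2 fold change was -0.73 (SE 0.22, adjusted p = 0.0249), 1.66-fold lower, which is under the fold required for a call, and -0.98 without E14.5 replicate 1. All 3 E16.5 samples were below all 3 E14.5 samples, and 38.3% of all genes tested had E16.5 samples lower without overlap in the same way.

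*Tfap2a*, a factor of both the neural crest and the surface ectoderm, had an FPKM of 8.70, 10.61 and 9.65 in the pNC (9.65 ± 0.955, n = 3). It was 32.20, 26.27 and 29.09 in the E14.5 corneas (29.2 ± 2.97, n = 3) and 32.29, 26.11 and 27.92 in the E16.5 corneas (28.8 ± 3.18, n = 3). The pNC samples lay below every cornea sample, as for *Tfap2b*, where samples higher without overlap were found for 31.4% of all genes in the E14.5 corneas and 33.0% in the E16.5 corneas. The ranges of both cornea stages nearly coincided. *Tfap2a* rose from E10.5 to E14.5 by 1.57 on the log2 scale (SE 0.12, adjusted p = 2.0e-06), or by 1.4999 without E14.5 replicate 1, and from E10.5 to E16.5 by 1.72 (SE 0.12, adjusted p = 5.0e-07). Between E14.5 and E16.5 the log2 fold change was 0.15 (SE 0.11, adjusted p = 0.331), or 0.22 without that sample, and its sign turned when libraries were scaled to their totals alone. A long noncoding RNA gene, Gm26688, overlaps *Tfap2a* and its first window and was listed in no sample. Whether counting used the strand is not given in the sources used here.

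*Tfap2c*, which in the skin works beside *Tfap2a* in keratinocytes, was the lowest of the 3 expressed members. Its FPKM was 5.95, 8.30 and 9.14 in the pNC (7.80 ± 1.65, n = 3), 9.64, 4.75 and 5.08 in the E14.5 corneas (6.49 ± 2.73, n = 3) and 12.16, 9.18 and 8.30 in the E16.5 corneas (9.88 ± 2.02, n = 3). Ranges overlapped between every pair of stages, and at E14.5 replicate 1 was about as high as the E16.5 samples while the other two were the lowest of all 9. The log2 fold change was -0.27 from E10.5 to E14.5 (SE 0.27, adjusted p = 0.410), 0.50 from E10.5 to E16.5 (SE 0.26, adjusted p = 0.112) and 0.77 from E14.5 to E16.5 (SE 0.27, adjusted p = 0.0438), and none reached the fold required. Without E14.5 replicate 1, the E14.5 cornea stood at -0.66 against the pNC (adjusted p = 0.0164), still under that fold, and the change from E14.5 to E16.5 was 1.16 (adjusted p = 5.7e-04) and *Tfap2c* was called higher at E16.5. The call on *Tfap2c* between the cornea stages therefore turned on that library.

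*Tfap2d* was at 0 in all 9 samples, 0 of 79873982 counts, which allows up to 0.0376 CPM over the series by counting error alone. The gene lies on chromosome 1 (chr1:19103022-19173948), 34960 bases before *Tfap2b* (chr1:19208908-19238845), so 2 neighbouring members of the family stood at opposite ends of the range. The genes on the far sides of this pair, *Defb41* before *Tfap2d* and *Pkhd1* after *Tfap2b*, were at 0 and at no more than 0.0967 FPKM. *Tfap2e* had 1 count in E14.5 replicate 3 and 2, 1 and 1 counts in the E16.5 samples, each at or under the floor of 3 counts per library, and none in the pNC. It lies on chromosome 4 (chr4:126716003-126736269) between *Psmb2*, a proteasome subunit at 134.9 FPKM on average in the pNC, and *Ncdn*, a neuronal protein at 15.6. *Tfap2a* (chr13:40713802-40738238) had neighbours of low level, *Ofcc1* and *Gcnt2*, with stage means of at most 1.43 FPKM. *Tfap2c* (chr2:172545678-172558622) lies between *Fam209*, at no more than 0.61 FPKM at any stage, and *Bmp7*, a ligand of the BMP family that stood at 19.7, 38.5 and 22.6 FPKM at the 3 stages.

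**Figure D1:**
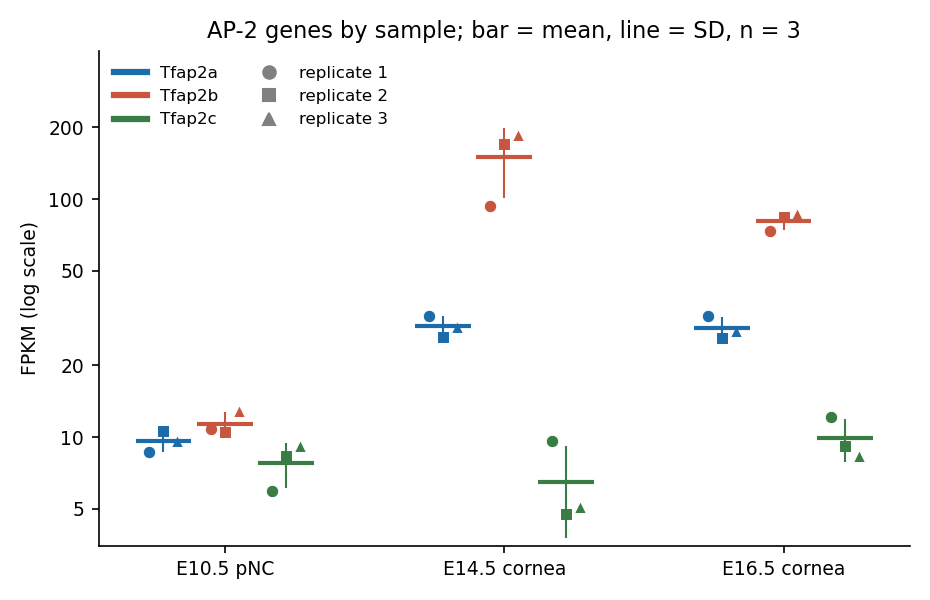
FPKM on a log axis of *Tfap2a*, *Tfap2b* and *Tfap2c* in each of the 9 samples, with symbols for the replicate number, a bar at the mean of a stage and a line of 1 SD to each side (n = 3). The 3 genes lie close together at E10.5, while in the cornea *Tfap2b* stands at 73.14 to 186.14, above *Tfap2a* at 26.11 to 32.29 and *Tfap2c* at 4.75 to 12.16.

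Of the members tested, 2 of 3 were called higher and 0 lower in the E14.5 cornea against the pNC, where 21.6% of all genes tested were called, 13.6% higher and 7.97% lower. The count at E16.5 against E10.5 was the same, with a background of 34.8%, 19.4% higher and 15.4% lower. Both comparisons share the E10.5 samples. Between the cornea stages 0 of 3 members were called in edgeR against a background of 11.7%, 6.26% higher and 5.47% lower. Scaling to library totals turned the balance of that background, from 924 genes higher and 808 lower to 731 and 1099, and at E16.5 against E10.5 from 2862 and 2282 to 2503 and 2695. At E16.5 against E14.5, *Tfap2b* and *Tfap2c* were under 0.05 both before and after adjustment. Both would pass with no fold minimum, as did 35.0% of all genes. DESeq2 also called 0 of 3 there, and so did limma and a recomputed NOISeq criterion. The median log2 fold change over all genes was 0.01, 0.00 and -0.02 in the 3 comparisons, so the members' values are close to differences from the typical gene.

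**Figure D2:**
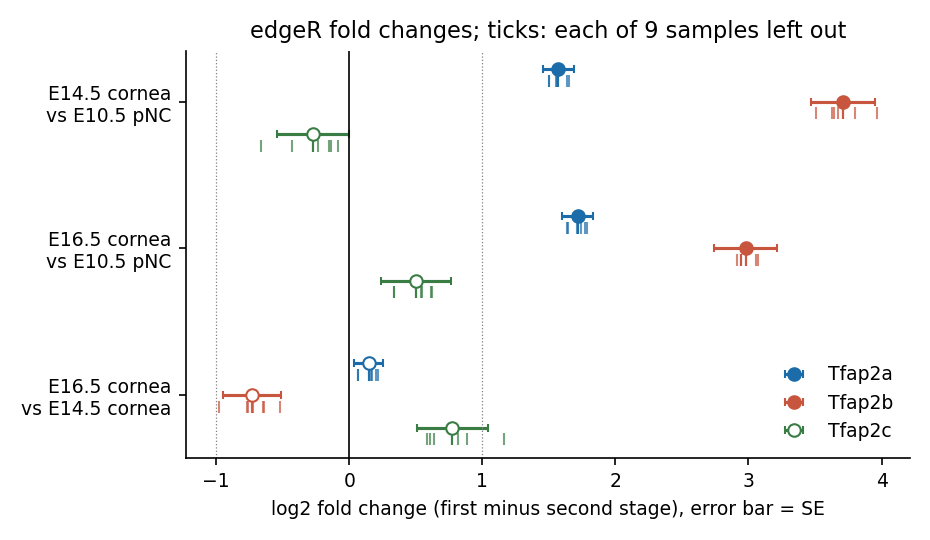
edgeR log2 fold changes of the 3 tested members in each comparison of stages, with filled circles for called genes, open circles for genes not called, error bars of 1 SE and ticks for the fits that leave out 1 of the 9 samples. *Tfap2b* and *Tfap2a* lie past 1 in both comparisons with E10.5, and the ticks of *Tfap2c* between the cornea stages reach 1.16.

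The members' transcripts were then divided among the family. The summed FPKM of the family was 28.8 ± 3.15 in the pNC, 186 ± 44.6 in the E14.5 cornea and 120 ± 2.40 in the E16.5 cornea (SD, n = 3). In the pNC *Tfap2b* held 39.6%, *Tfap2a* 33.6% and *Tfap2c* 26.8% of it. The shares of *Tfap2b* and *Tfap2a* overlapped in range at that stage, while the share of *Tfap2c* lay below both in every sample. In FPKM the ranges of *Tfap2a* and *Tfap2c* did overlap there. In the E14.5 cornea the shares were 79.4%, 16.7% and 3.92%, and in the E16.5 cornea they were 67.7%, 24.0% and 8.26%. At both cornea stages the order was *Tfap2b*, *Tfap2a*, *Tfap2c*, without overlap of the ranges. The share of *Tfap2c* lay below that of the pNC in every cornea sample although its own level overlapped between stages, since a share also depends on the other members.

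**Figure D3:**
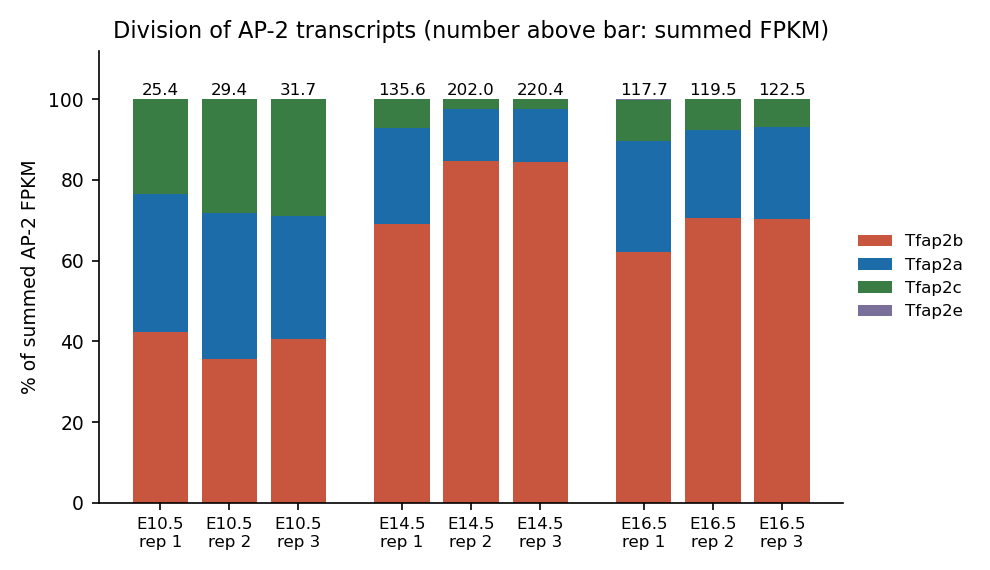
Share of the summed FPKM of the AP-2 genes held by each member, 1 bar per sample from 0 to 100%, with the summed FPKM written above each bar. The *Tfap2b* part grows from 35.6 to 42.4% in the pNC to 69.1 to 84.6% in the E14.5 corneas and 62.1 to 70.4% in the E16.5 corneas, and E14.5 replicate 1 is the lowest of its stage; *Tfap2e* is too small to be seen.

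Within a sample the ratio of *Tfap2b* to *Tfap2a* does not depend on how libraries are scaled. It was 1.24, 0.986 and 1.34 in the pNC, 2.91, 6.51 and 6.40 in the E14.5 corneas and 2.27, 3.23 and 3.09 in the E16.5 corneas. All cornea samples lay above all pNC samples, and E14.5 replicate 1 fell within the E16.5 range. The mean log2 ratio was 2.07 higher in E14.5 cornea than in pNC, 1.26 higher in E16.5 cornea than in pNC, and -0.81 from E14.5 to E16.5. An exact permutation test of the stage labels over 1680 assignments gave p = 0.0107 for a difference among the stages, the smallest p possible being 0.00357. Leaving out any sample kept p between 0.00357 and 0.0143 in the exact test, with the difference of E14.5 from E10.5 between 1.87 and 2.45. Pairs of stages were not tested, since 3 samples against 3 cannot go below p = 0.10 in an exact permutation test.

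The tables also give RSEM's mean transcript length of each gene, weighted by the transcripts assigned. For *Tfap2a* it was 2945.13 to 2951.42 bases in the pNC and 2911.99 to 2939.90 in the cornea. For *Tfap2b* it was 6031.32 to 6035.97 against 6024.77 to 6029.01, and for *Tfap2c* 2817.01 to 2831.84 against 2834.24 to 2850.53. In each of the 3 members the pNC samples lay outside the range of the 6 cornea samples, which held for 11.4% of 3341 genes with a length that varied. The differences are small beside the lengths, and shares of single transcripts were not computed.

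The corneal epithelium expresses AP-2 genes, so markers of cell types were summed beside the members. The sum of 13 markers of corneal epithelium or surface ectoderm was 46.4, 65.8 and 66.3 FPKM in E10.5 replicates 1, 2 and 3, 2372, 789 and 908 in the E14.5 corneas and 8059, 5581 and 5643 in the E16.5 corneas. All 13 were listed at E10.5 although ectoderm had been removed there, among them *Epcam*, an adhesion protein of epithelia, at 9.46 to 11.78 FPKM and *Cdh1*, E-cadherin, at 6.28 to 8.0. At both cornea stages replicate 1 had the highest epithelial sum, the highest *Tfap2a* and *Tfap2c* and the lowest *Tfap2b*. Each marker of the list was highest in replicate 1 at both of these stages, but by unlike amounts. At E14.5 *Krt12* was 101.52 FPKM in replicate 1 against 0.62 and 2.06 in replicates 2 and 3. *Krt5* was 1042.15 against 342.86 and 415.62, while *Epcam* was 41.39 against 37.99 and 36.47. In the pNC replicate 1 had the lowest epithelial sum and the lowest *Tfap2a* and *Tfap2c*. From E14.5 to E16.5 the epithelial sum was higher in every sample, without a rise of *Tfap2a* that passed the test. Such a sum follows its most abundant genes, the keratins. *Epcam* alone of the list was lower at E16.5, at 23.49 to 27.86 FPKM against 36.47 to 41.39 at E14.5. In bulk samples fewer cells of a type and less RNA per cell cannot be told apart, and the part of the epithelium in the members' differences was not tested.

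The sum of 8 markers of corneal endothelium, a crest-derived layer, was 218, 224 and 171 FPKM in the pNC, 584, 671 and 773 in the E14.5 corneas and 458, 509 and 517 in the E16.5 corneas. Its order over the stages and, in the cornea, over the replicates was that of *Tfap2b*. Sums of 8 stromal markers, collagens and proteoglycans of the corneal matrix among them, ran from 195 to 315 in the pNC, from 2966 to 7048 in E14.5 corneas and from 11913 to 15190 in E16.5 corneas, and *Ptgds* was at 0 in the pNC. The stromal sum of replicate 1 was the highest of its stage at E14.5 and the lowest at E16.5. At E14.5 the stromal gene *Kera* was 802.93 FPKM in replicate 1 against 83.13 and 151.16 in replicates 2 and 3. *Col5a1* was 361.14 there against 219.36 and 393.62. Sums of 8 markers of migratory crest mesenchyme ran from 555 to 641, from 304 to 394 and from 280 to 341. The genes in them did not move alike. *Alx1*, *Six2* and *Foxd1* were at most 1.46, 2.35 and 0.18 FPKM in the cornea, against at least 43.43, 91.87 and 30.12 in the pNC. *Alx4* and *Prrx2* were also lower in the cornea. *Twist1* and *Pdgfra* overlapped in range with the pNC, and *Prrx1* was higher in the cornea. The sums were lowest in replicate 1 at both cornea stages. Their part in the differences was not tested either.

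**Figure D4:**
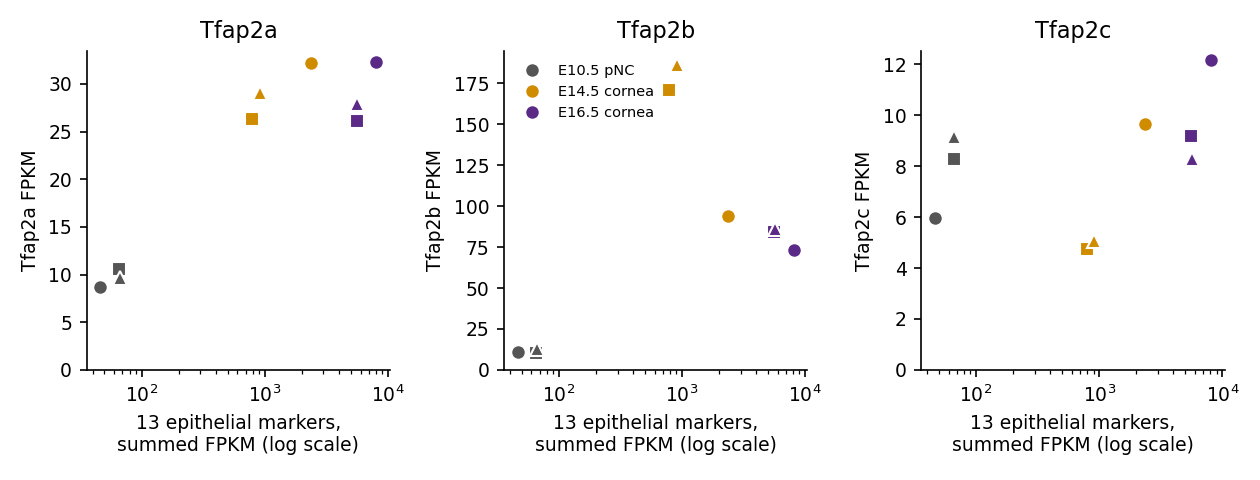
FPKM of *Tfap2a*, *Tfap2b* and *Tfap2c* in each sample against the summed FPKM of 13 epithelial markers on a log axis, with colours for the stage and circles, squares and triangles for replicates 1, 2 and 3. Within E14.5 and within E16.5 the circle, replicate 1, lies farthest to the right, highest for *Tfap2a* and *Tfap2c* and lowest for *Tfap2b*.

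Markers of further cell types and tissues were summed in the same way, without a list for the midbrain. Of 9 markers of amacrine and horizontal neurons the sum was 4.83 to 8.53 FPKM in all samples and *Ptf1a* was at 0 throughout. Of 8 retina or optic cup markers it was 17.1 to 49.6 in the pNC, 4.04 to 9.47 in E14.5 corneas and 2.69 to 4.05 in E16.5 corneas. Of 6 markers of germ cells or trophoblast it was 1.27 to 4.10, with *Dppa3* at 0 throughout. Of 6 markers of eyelid or differentiating epidermis it was 3.40 to 4.21 in the pNC, 10.2 to 39.6 in E14.5 corneas and 53.9 to 73.2 in E16.5 corneas, with *Flg* at 0 throughout. Of 5 markers of olfactory epithelium it was 56.1 to 73.5, 28.5 to 50.2 and 40.9 to 44.5 at the 3 stages, and *Tfap2e* stayed at or under the floor in all of them.

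Cofactors of AP-2 proteins were called against E10.5 about as often as genes at large. Of 10 partners and inhibitors, 0 rose and 2 fell at E14.5 against E10.5, 0 rose and 3 fell at E16.5 against E10.5, and 0 were called between the cornea stages, with medians of -0.12, -0.10 and -0.01 on the log2 scale. Over all genes, 21.6%, 34.8% and 11.7% were called in the 3 comparisons. The CITED proteins bridge AP-2 to the acetyltransferases p300 and CBP. *Cited1* fell from 11.3 ± 0.770 FPKM in the pNC to 0.927 ± 0.813 at E14.5 (log2 fold change -3.66, SE 0.43, adjusted p = 4.7e-05) and to 0.307 ± 0.0058 at E16.5 (-5.16, SE 0.52, adjusted p = 6.6e-06). *Cited4* also fell at both stages (-2.43 and -2.37 on the log2 scale), a gene named after its values were seen. *Cited2* stood at 25.7, 25.9 and 22.02 FPKM, with log2 fold changes of 0.00 and -0.07 against E10.5 (SE 0.12 for each). The inhibitor *Kctd15*, which binds the activation domain of AP-2a, stood at 43.0, 36.5 and 35.6 FPKM and was not called. *Yeats4*, a subunit of chromatin complexes known as GAS41, fell at E16.5 from 58.2 ± 2.74 to 25.8 ± 0.233 (-1.02, SE 0.08, adjusted p = 1.8e-06).

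Genes known from other systems as regulated by AP-2 were counted next. Of 19 such genes 17 were tested, and 8 rose and 2 fell at E14.5 against E10.5, 10 rose and 2 fell at E16.5 against E10.5, and 4 rose and 0 fell between the cornea stages. Over all genes 13.6% rose and 7.97% fell, 19.4% and 15.4%, and 6.26% and 5.47% in the same comparisons. Without E14.5 replicate 1 the first count was 7 that rose and 3 that fell. The medians were 0.94, 1.79 and 0.46 on the log2 scale. The keratins *Krt5* and *Krt14*, intermediate filaments of basal epithelial cells, had the largest rises of the list against E10.5. *Krt5* was 3.66 ± 0.797 FPKM in the pNC, 600 ± 384 in the E14.5 cornea and 2377 ± 447 in the E16.5 cornea, and *Krt14* was 1.93 ± 0.307, 84.4 ± 108 and 491 ± 72.2. The wide spread at E14.5 came with replicate 1, where *Krt5* was 1042 against 343 and 416 in replicates 2 and 3, and *Krt14* was 209 against 14.9 and 29.1. Both are also among the 13 epithelial markers, as is *Cdh1*, a further member that rose at both stages.

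Receptors and regulators of this list moved as well. *Egfr*, the receptor for epidermal growth factor, rose from 3.56 ± 0.755 FPKM to 39.0 ± 2.90 at E14.5 (3.44 on the log2 scale, SE 0.15, adjusted p = 8.5e-08). *Cdkn1a*, the cell cycle inhibitor p21, was at 3.38 ± 0.0624 and 2.65 ± 2.09 in the pNC and E14.5 cornea and rose to 19.1 ± 6.48 in the E16.5 cornea (2.64 from the pNC, SE 0.41, adjusted p = 1.8e-04). The 2 genes that fell were *Sox10* and *Foxd3*, factors of early and glial crest. *Sox10* went from 14.3 ± 3.27 to 3.84 ± 1.72 and 2.40 ± 0.585 FPKM. Summed Schwann and glial markers, which hold both genes and *Erbb3*, ran from 58.4 to 76.4 in the pNC, 20.4 to 28.5 in E14.5 corneas and 31.6 to 37.9 in E16.5 corneas.

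Factors that act beside AP-2 at the neural plate border and in early crest mostly fell, unlike *Tfap2a* and *Tfap2b*. Of 22 such genes 20 were tested, and 1 rose and 14 fell at E14.5 against E10.5, 1 rose and 13 fell at E16.5 against E10.5, and 1 rose and 3 fell between the cornea stages, with medians of -2.02, -2.48 and -0.03 on the log2 scale. The shares of all genes that fell were 7.97%, 15.4% and 5.47%. Leaving out E10.5 replicate 3 gave 2 that rose in each comparison. *Zic2*, a zinc finger factor of the neural plate, fell from 16.2 ± 3.09 FPKM to 0.113 ± 0.0751 at E14.5 (-7.10, SE 0.36, adjusted p = 1.8e-07). *Pax7*, a paired-type factor of the border, was at 7.50 ± 3.43 in the pNC and at 0 in all 6 cornea samples. *Msx1*, a homeobox target of BMP signals, fell from 58.8 ± 9.58 to 7.80 ± 3.02 and then to 0.920 ± 0.321 (-2.91 between the cornea stages, SE 0.37, adjusted p = 6.2e-04). *Gata3* fell from 11.7 ± 2.33 to 0.337 ± 0.0907 at E14.5 (-5.13, SE 0.28, adjusted p = 2.9e-07).

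The single gene of this list that rose against E10.5 was *Dlx3*, a homeobox factor of surface ectoderm. It was at 1.71 ± 0.142, 11.2 ± 1.94 and 10.9 ± 1.48 FPKM and rose by 2.69 on the log2 scale at E14.5 (SE 0.17, adjusted p = 7.3e-07) and by 2.82 at E16.5 (SE 0.17, adjusted p = 2.6e-07). *Id3*, a helix-loop-helix inhibitor induced by BMP, fell from 127.5 ± 46.6 at E14.5 to 48.0 ± 4.23 at E16.5 (-1.25, SE 0.24, adjusted p = 0.0031). *Gata3* was the single gene called higher at E16.5 than at E14.5, at 0.337 and 0.760 FPKM, and was not called without E16.5 replicate 1.

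Signals and factors of the periocular mesenchyme that act with or upstream of *Tfap2b* were counted in the same way. Of 14 genes, 3 rose and 2 fell at E14.5 against E10.5, 3 rose and 4 fell at E16.5 against E10.5, and 0 rose and 5 fell between the cornea stages, with medians of 0.34, -0.07 and -0.52 on the log2 scale. The shares of all genes were 13.6% higher and 7.97% lower, 19.4% and 15.4%, and 6.26% and 5.47%. The last count was 7 without E14.5 replicate 1, 2 without E14.5 replicate 2 or without E16.5 replicate 1, and 3 without E16.5 replicate 2 or 3. *Lmx1b*, a LIM-homeobox factor of this tissue, was at 7.14 ± 0.967, 49.4 ± 13.9 and 36.0 ± 5.86 and rose by 2.78 (SE 0.23, adjusted p = 4.7e-06). *Tgfbr2*, a TGF-beta receptor, rose by 1.46 at E14.5 (SE 0.16, adjusted p = 3.4e-05) and by 2.08 at E16.5 (SE 0.16, adjusted p = 1.3e-06).

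*Foxc2*, a forkhead factor of the periocular mesenchyme, fell from 30.4 ± 8.396 FPKM to 4.21 ± 3.04 and 0.757 ± 0.292. *Rarb*, a retinoic acid receptor that is itself induced by retinoic acid, fell from 46.2 ± 5.48 to 17.0 ± 6.94 and 4.12 ± 0.960. The retinaldehyde dehydrogenases *Aldh1a1* and *Aldh1a2*, which make retinoic acid, fell from E14.5 to E16.5 by 2.69 (SE 0.75, adjusted p = 0.0181) and by 2.24 (SE 0.41, adjusted p = 0.0025) on the log2 scale. *Foxc1* stood at 33.9, 37.2 and 19.95 FPKM and was not called.

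**Figure D5:**
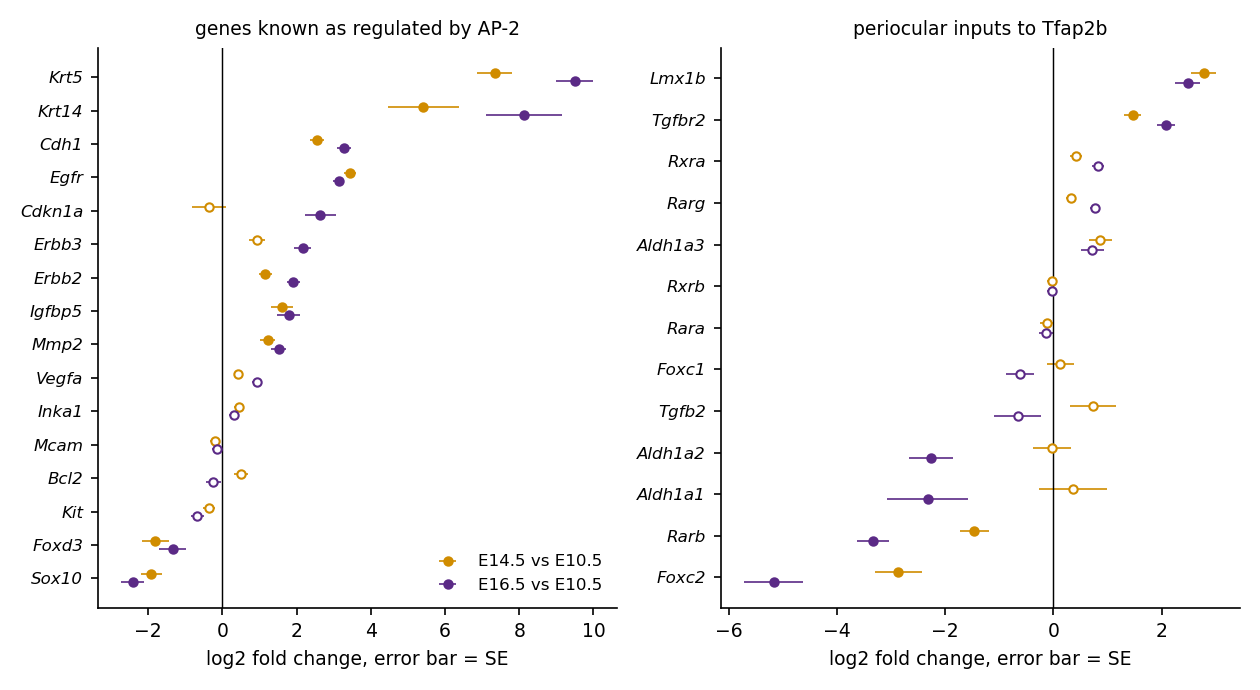
edgeR log2 fold changes against E10.5, with error bars of 1 SE, of the genes reported here from those known as regulated by AP-2 (left) and from the periocular list (right), at E14.5 and E16.5, filled where called. On the left the keratins lie farthest to the right, up to 9.49 for *Krt5*, and on the right *Lmx1b* and *Tgfbr2* have filled points above 0.

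Likeness to a member was measured as Pearson's r of log2(FPKM + 1) over the 9 samples, among 10941 genes with a mean of at least 5 FPKM in some stage, and is given as a description. The samples share their 3 stages, so any gene with the same step between stages has a high r. The genes most like *Tfap2a* were 2310030G06Rik, *Synpo2*, an actin-binding protein, *Dab1*, an adaptor of reelin signalling, *Dlx3* and *Jag2*, a Notch ligand, at r of 0.993 to 0.996. *Dlx3* was thus named by this measure and by the list of border factors. Those most like *Tfap2b* were *Gsg1l*, *Gas1*, a hedgehog co-receptor, *Sdc2*, a syndecan proteoglycan, *Sapcd1* and *Trim44*, at r of 0.993 to 0.996. *Gsg1l* went from 0.667 ± 0.0907 FPKM to 20.2 ± 7.35 and 11.2 ± 2.60, and *Sdc2* from 16.7 ± 1.44 to 106.8 ± 31.8 and 66.5 ± 8.50. For *Tfap2c* they were *Rassf1*, *Polr1d*, an RNA polymerase subunit, *Bcl7b*, *Bnip3* and *Ndufv3*, a subunit of respiratory complex I, at 0.934 to 0.965. Among the members r was 0.934 for *Tfap2a* with *Tfap2b*, 0.117 for *Tfap2a* with *Tfap2c* and -0.216 for *Tfap2b* with *Tfap2c*.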

How the data were processed

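RNA-Seq values of 9 samples were used, 3 at each of 3 stages, with stages and replicate numbers taken from the labels. The authors mapped Illumina HiSeq reads with Bowtie 2 and HISAT to GRCm38 and quantified genes with RSEM, whose versions are not given in the sources used here. Per the file headers, each deposited table holds an expected count, which is not normalized, a mean transcript length, and FPKM, which the authors scaled to length and library total. Genes not listed in a sample were taken as 0 there. Identifiers were matched to RefSeq genes, 19312 of 19369 with a symbol.

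Expected counts were rounded and tested with edgeR 4.0.16 in R 4.3.3 (filterByExpr, TMM, 1 quasi-likelihood model of stage over all 9 samples). The test was tried on simulated counts with log2 changes of 1.5 or 2 in either direction. It recovered 94 to 100% of the changed genes in each comparison. Smaller changes, and a library that stands apart as E14.5 replicate 1 did, were not simulated. Ratios were tested by exact permutation. Summaries used Python 3.11.15. Alternatives used library totals, DESeq2 1.42.0, limma 3.58.1 on log2(FPKM + 1) and log2(FPKM + 0.1), no filter, the 2 stages alone, no fold minimum, a replicate block, a recomputed NOISeq criterion (probability of at least 0.8) and each sample left out. Depth was 8745161 to 9069023 expected counts per sample, so the floor of 3 counts per library is 0.331 to 0.343 CPM. Floors cover counting error only.

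Members and lists were chosen with earlier results of these data known. Named were all members, their neighbours, the 5 genes most like each expressed member, and of each list up to 3 called genes per direction, those of greatest change, where they had a mean of at least 5 FPKM in either stage. Others are named where a count is 5 or fewer or to give a role, after their values were seen. Protein sequences were not used here. Values of some genes of the lists are not reported here, and the counts and sums over the lists include them.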

Additional observations from a re-analysis of the deposited data

How the results depend on the processing

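*Tfap2a* and *Tfap2b* were called higher than at E10.5 in both cornea stages under every alternative run. Over those alternatives, the log2 fold change of *Tfap2a* was 1.498 to 1.65 at E14.5 and 1.48 to 1.78 at E16.5, and that of *Tfap2b* was 3.505 to 3.96 and 2.73 to 3.07. Scaling to library totals moved the median of all genes to -0.15 at E16.5 against E10.5 and to -0.19 at E16.5 against E14.5, and the members moved with it. The change of *Tfap2a* from E14.5 to E16.5 turned to -0.0155 with library totals, to -0.0206 by limma with a pseudocount of 1, with or without the filter, to -0.0213 with 0.1 and to -0.0206 in the NOISeq ratio of means; its adjusted p was 0.125 to 0.931 over the alternatives that give one. Between the cornea stages, leaving out 1 sample gave 0 to 1 members higher, with *Tfap2c* at 0.58 to 1.16 (adjusted p 5.7e-04 to 0.160) and *Tfap2b* at -0.98 to -0.52 (2.0e-05 to 0.0971). With no fold minimum 1 member rose (*Tfap2c*, 0.77) and 1 fell (*Tfap2b*, -0.73).

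Counts over all genes moved by over 1.5 times in 3 kinds of alternative. At E14.5 against E10.5, higher and lower genes numbered 1302 and 760 by limma, 1293 and 752 without its filter, 4273 and 4055 with no fold minimum and 941 and 535 by NOISeq. At E16.5 against E10.5 they numbered 1885 and 2046 by limma, 1882 and 2037 without its filter, 5197 and 5119 with no fold minimum and 1694 and 1920 by NOISeq, and the balance of higher to lower genes turned by limma and NOISeq, as with library totals. Between the cornea stages the counts were 517 and 511, 506 and 504, 2579 and 2585, and 381 and 401. By limma with a pseudocount of 0.1 the balance turned in both, with 2370 and 2499 and with 696 and 947. Of the counts within gene lists under all alternatives, 450 stayed within 1.5 times and 30 did not. The causes were not tested, other than that a fold minimum removes genes by construction.

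Samples with the same replicate number did not deviate together, with a mean r of -0.0164 over 9 pairs (-0.225 to 0.250) against 0.00917 over 18 others. With a replicate block no member's call changed, *Tfap2b* being at 3.66, 2.98 and -0.68 in the 3 comparisons. The exact permutation of the ratio within the block gave p = 0.0278 over 216 assignments, the smallest p possible there.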

Other observations

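Other tissues that a dissection could carry were low or moved with stage. Summed FPKM of 9 lens markers was 1.94 to 5.96 in the pNC, 7.18 to 8.06 in E14.5 corneas and 5.73 to 6.95 in E16.5 corneas, with *Crybb2* at 0 throughout. Melanocyte or pigment epithelium markers summed to 49.3 to 55.7, 60.5 to 111.7 and 29.1 to 31.2. Vascular endothelial markers summed to 94.5 to 162.9, 48.5 to 86.2 and 23.2 to 36.4, and those of red blood cells to 5194 to 8176, 2535 to 4415 and 1230 to 2665. Their part in the members' values was not tested.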
